A study of Mus musculus with 16 samples.

Results

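Cholesterol synthesis was examined through 8 enzyme genes, Hmgcs1, Idi1, Fdps, Fdft1, Sqle, Lss, Cyp51 and Dhcr7, of the 12393 genes on the array. A gene's members are all probe sets that carry its symbol alone, 20 probe sets for these 8 genes, and the probe set with the highest mean over the arrays stands for the gene. The genes were chosen from their measured group differences in these same arrays, so their levels and differences are a description, given with no p-value. The LDL receptor was not analysed here.

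Mouse RNA was hybridised to 16 Affymetrix M430A_2 arrays, 1 sample to each. Of these, 4 held melanocytes with no disease, 6 held cutaneous melanomas of the iMet model, and 6 held those of the iHRAS* model, which the sample labels call iRas. The iMet genotype is Tyr-rtTA with Tet-Met on Ink4a/Arf-/-, and the iHRAS* genotype is Tyr-rtTA with Tet-HRASV12G on Ink4a/Arf-/-. The design compares the models as metastasis-capable or not.

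In both models the tyrosinase promoter drives the tetracycline transactivator, which limits transgene expression to cells that use that promoter, and both tumour groups share the loss of Ink4a/Arf. The labels give no genotype for the melanocytes and no age, sex or treatment for any group. They also do not say whether samples came from separate animals, so p-values measure the spread between these samples, which may be technical. Values are log2 signals after quantile normalization between arrays, and a signal under 6.21 on that scale was taken as dim. By this cut 4 of 7 measured melanocyte marker genes, Dct, Tyr, Tyrp1 and Mitf, were dim on all 4 melanocyte arrays, which goes against that label, while Sox10 (mean 9.66), Slc45a2 (7.08) and Pmel (6.70) were above the cut on all 4. In iMet, Dct, Pmel, Tyr and Tyrp1 were dim on all 6 arrays, and in iHRAS* none of the 7 was dim on every array. The melanocyte arrays also fell into pairs: fibroblast markers averaged 10.25 and 11.04 on arrays 1 and 3 but 8.65 and 7.93 on arrays 2 and 4, and keratinocyte markers 7.44 and 6.51 against 9.24 and 9.02. Arrays of bulk RNA cannot tell fewer cells of a type from less RNA per cell.

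Cells make cholesterol from acetyl-CoA by the mevalonate pathway. Early enzymes build isoprenoid units, which also feed protein prenylation, dolichol and ubiquinone. Squalene synthase commits the pathway to sterols, squalene is oxidised and folded into lanosterol, and later enzymes trim lanosterol to cholesterol. When membrane sterol is low, the escort SCAP carries the transcription factor SREBP2 to the Golgi, where it is cleaved, and SREBP2 then activates most genes of the route together with NF-Y, which binds CCAAT, and Sp1, which binds GC boxes.

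The promoters are shown because the genes of this route are known for a shared set of control motifs. RefSeq (GRCm38.p6) held a promoter for 5 of the 8 genes, Hmgcs1, Idi1, Lss, Cyp51 and Dhcr7. The 250 bases before the annotated start are printed on the gene's own strand, with matches on either strand to TCACNCCAC, a form of the sterol regulatory element, to CCAAT or to GGGCGG in capitals. For Dhcr7, which has 3 annotated starts, the farthest downstream is printed, chosen after the matches were seen because it alone holds CCAAT.
Hmgcs1, chr13:119690101-119690350, plus strand: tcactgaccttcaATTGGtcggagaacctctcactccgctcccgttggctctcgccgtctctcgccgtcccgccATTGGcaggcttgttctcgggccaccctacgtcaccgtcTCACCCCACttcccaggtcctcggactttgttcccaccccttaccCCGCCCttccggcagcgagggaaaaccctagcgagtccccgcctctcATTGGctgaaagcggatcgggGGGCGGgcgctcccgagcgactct
Idi1, chr13:8885356-8885605, plus strand: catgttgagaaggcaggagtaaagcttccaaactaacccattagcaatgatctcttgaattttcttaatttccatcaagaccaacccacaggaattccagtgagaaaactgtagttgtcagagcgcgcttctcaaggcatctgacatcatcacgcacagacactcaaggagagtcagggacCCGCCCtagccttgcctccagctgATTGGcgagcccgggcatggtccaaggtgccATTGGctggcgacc
Lss, chr10:76531355-76531604, plus strand: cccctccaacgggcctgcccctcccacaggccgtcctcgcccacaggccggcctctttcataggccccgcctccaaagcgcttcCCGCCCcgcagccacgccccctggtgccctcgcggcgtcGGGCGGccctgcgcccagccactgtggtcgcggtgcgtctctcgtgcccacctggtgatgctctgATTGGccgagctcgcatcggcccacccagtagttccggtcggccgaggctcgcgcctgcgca
Cyp51, chr5:4104698-4104947, minus strand: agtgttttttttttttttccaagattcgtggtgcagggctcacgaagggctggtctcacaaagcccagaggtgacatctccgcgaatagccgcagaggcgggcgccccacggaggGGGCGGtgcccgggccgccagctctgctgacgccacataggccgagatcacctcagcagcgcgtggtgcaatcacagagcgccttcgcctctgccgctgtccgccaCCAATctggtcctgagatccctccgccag
Dhcr7, chr7:143829964-143830213, plus strand: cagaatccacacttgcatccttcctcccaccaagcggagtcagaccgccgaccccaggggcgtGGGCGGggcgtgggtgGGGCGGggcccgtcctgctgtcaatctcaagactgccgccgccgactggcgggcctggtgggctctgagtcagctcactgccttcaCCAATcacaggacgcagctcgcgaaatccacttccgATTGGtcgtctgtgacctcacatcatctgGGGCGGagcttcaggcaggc

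Hmgcs1 alone of the 5 held TCACNCCAC, 137 to 129 bases before the start, read as TCACCCCAC on the gene's strand. Each printed window held CCAAT, as 3 matches in Hmgcs1, 2 in Idi1, 1 in Lss, 1 in Cyp51 and 2 in Dhcr7. Each also held at least 1 GGGCGG, and the Dhcr7 window had 3. Among all 32851 RefSeq promoters of 250 bases, 1.05% held TCACNCCAC, 33.8% held CCAAT and 32.7% held GGGCGG. The other Dhcr7 starts held a single GGGCGG in one window and none of the motifs in the other. No motif overlapped another, and these matches describe letters only.

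All 8 genes had lower mean signals in iMet than in iHRAS*, with a median difference of -0.58 on the log2 scale against 0.03 over the 8058 genes tested. The gap was widest for Dhcr7, the enzyme of the last reduction, whose mean signal was 2.64 times as high in iHRAS* as in iMet. Against melanocytes the 8 genes split: 6 were higher by sign in iHRAS* and 3 in iMet. Dhcr7 lay below the melanocyte mean on every iMet array and above it on every iHRAS* array, which is the pattern it was chosen for. Levels of different genes come from different probe sets and are not compared with each other.

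The isoprenoid step starts with Hmgcs1, the cytosolic synthase that makes HMG-CoA. Its signal on melanocyte arrays 1 to 4 was 9.40, 9.37, 9.66 and 9.52. In iMet it ran from 9.15 through a median of 9.60 to 10.23, and in iHRAS* from 9.81 through 10.21 to 10.96. Every iHRAS* array was above every melanocyte array, while the iMet arrays spread over both. The difference was 0.75 ± 0.24 (SE of the limma fit) for iHRAS* minus melanocytes, -0.59 ± 0.24 for iMet minus iHRAS*, and 0.16 ± 0.24 for iMet minus melanocytes, whose sign turned to -0.07 when arrays were centred on their medians.

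Idi1 isomerises isopentenyl pyrophosphate, the unit from which longer isoprenoids grow. Its melanocyte signals were 7.56, 7.52, 7.60 and 6.99, with array 4 apart from the rest. The iMet arrays ran from 6.74 through a median of 7.92 to 8.79, the widest spread of the 8 genes in that group, and the iHRAS* arrays from 8.22 through 8.61 to 9.18. The iHRAS* arrays again lay wholly above the melanocytes, by 1.21 ± 0.34. The iMet difference from iHRAS* was -0.76 ± 0.32 and from melanocytes 0.45 ± 0.34, and iMet overlapped both groups.

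Fdps joins isoprenoid units into farnesyl pyrophosphate, the branch point toward sterols or prenylation. Melanocyte signals were 9.56, 9.62, 9.21 and 8.11, so that array 4 lay more than 1 log2 unit under the other 3. The iMet signals ran from 8.09 through 9.03 to 9.56 and the iHRAS* signals from 9.07 through 9.53 to 10.12. All 3 groups overlapped: the differences were -0.57 ± 0.26 for iMet minus iHRAS*, -0.15 ± 0.33 for iMet minus melanocytes and 0.42 ± 0.33 for iHRAS* minus melanocytes.

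Fdft1 is squalene synthase, the first enzyme committed to sterols. Its melanocyte signals were 7.82, 7.70, 7.68 and 6.89, and array 4 was again the low one. In iMet the signal ran from 7.27 through 7.71 to 8.46 and in iHRAS* from 7.70 through 7.93 to 8.77. The order of means was melanocyte, iMet, iHRAS*, but no neighbours in it were separated beyond their spread, with an SD of 0.43 in melanocytes, 0.46 in iMet and 0.40 in iHRAS*. The differences were -0.33 ± 0.23 between the models, 0.20 ± 0.27 for iMet and 0.53 ± 0.27 for iHRAS* against melanocytes.

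Sqle, squalene epoxidase, catalyses the oxygen-requiring step after squalene. Melanocyte signals were 9.38, 9.43, 8.90 and 9.43. In iMet they ran from 8.12 through 8.68 to 9.67 and in iHRAS* from 8.51 through 9.10 to 9.62, so that the groups overlapped throughout. Sqle was the gene with the smallest gap between the models, -0.29 ± 0.27, and unlike most of the others its mean was highest in melanocytes, by 0.47 ± 0.29 over iMet and 0.18 ± 0.29 over iHRAS*.

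Lss folds epoxidised squalene into lanosterol. Its melanocyte signals were close together, at 7.74, 7.80, 7.89 and 7.65. The iMet signals ran from 6.87 through 7.23 to 7.46, wholly below the melanocytes. The iHRAS* signals ran from 6.97 through 7.84 to 8.15, with array 1 well below the other 5, which lay at 7.67 or above. The difference was -0.56 ± 0.19 for iMet minus melanocytes, -0.52 ± 0.19 for iMet minus iHRAS* and -0.03 ± 0.19 for iHRAS* minus melanocytes.

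Cyp51 removes a methyl group from lanosterol and opens the last stage of the route. The melanocyte signals were 8.22, 8.18, 8.06 and 7.11, with array 4 low. In iMet the signal ran from 6.97 through 7.61 to 8.16, and in iHRAS* from 8.43 through 8.56 to 9.19. On this probe set no iHRAS* array overlapped either of the other groups, and array 4 stood above the other iHRAS* arrays. The differences were -1.03 ± 0.21 for iMet minus iHRAS*, 0.75 ± 0.26 for iHRAS* minus melanocytes and -0.28 ± 0.26 for iMet minus melanocytes.

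Dhcr7 reduces 7-dehydrocholesterol, the substrate from which skin also forms vitamin D, to cholesterol. Its melanocyte signals were 8.88, 8.36, 8.14 and 7.68, a wide range for 4 arrays. The 6 iMet arrays lay in a narrow band from 7.25 through 7.46 to 7.57, wholly below the melanocytes, and the 6 iHRAS* arrays from 8.59 through 8.84 to 9.09. The 2 models were separated by a gap wider than either group's range, with an SD of 0.11 in iMet and 0.20 in iHRAS*, while iHRAS* overlapped melanocyte array 1. The differences were -1.40 ± 0.11 for iMet minus iHRAS*, -0.82 ± 0.18 for iMet minus melanocytes and 0.58 ± 0.18 for iHRAS* minus melanocytes.

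**Figure D1:**
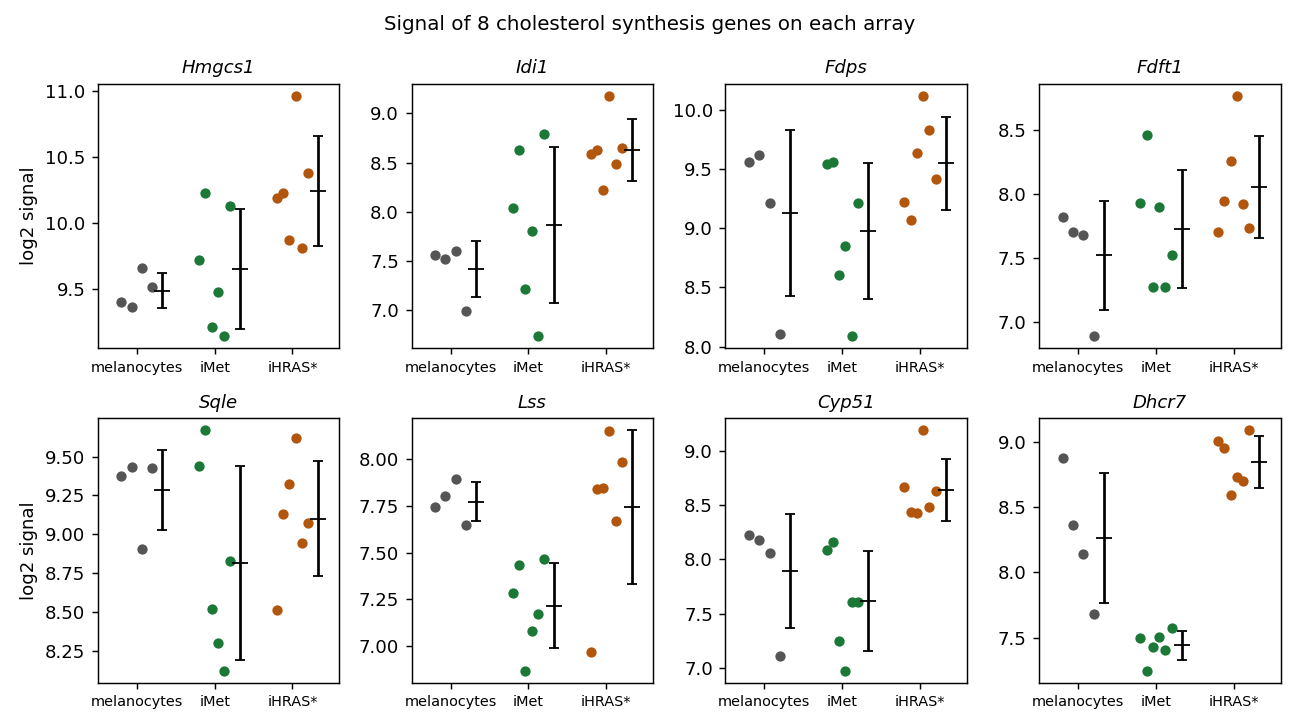
Log2 signal (y axis) of the 8 genes on each array, by group (x axis); points are arrays, and the bar beside each group is its mean with 1 SD. Dhcr7 separates the models with no overlap, from 7.25 to 7.57 in iMet and from 8.59 to 9.09 in iHRAS*, and melanocyte array 4 is the lowest melanocyte array for 6 of the 8 genes.

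A gene was called where limma's adjusted p over all genes tested was under 0.05, and for these 8 genes the calls only describe the differences by which they were chosen. Between the models 2 of the 8 were called, Cyp51 and Dhcr7, both lower in iMet, where 20.9% of all genes tested were called and 9.7% were called lower. In the same pair the groups did not overlap, as in 10.7% of all genes, 4.89% with iMet lower and 5.83% with iMet higher.

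Against melanocytes Dhcr7 and Lss were called, and did not overlap, with iMet lower. Of 8651 genes 35.1% were called in that comparison, 18.7% lower, and 27.7% did not overlap, 15% with iMet lower. The Lss call was lost, leaving 1 of 8, without melanocyte array 1, 2 or 3, without iMet array 3, 4 or 5, and without either melanocyte pair.

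In iHRAS* 4 were called against melanocytes, Hmgcs1, Idi1, Cyp51 and Dhcr7, all higher, where 39.3% of genes were called and 18.1% were called higher. The first 3 of them did not overlap, as in 25.3% of all genes, 11.2% with iHRAS* higher and 14.1% with iHRAS* lower. The count was 2, Hmgcs1 and Idi1, without melanocyte array 4 or without iHRAS* arrays 5 and 6, and 0 without melanocyte arrays 2 and 4. On the values as deposited, and with each array centred on its median, Idi1 was the 1 gene of the 8 still called. Both comparisons with melanocytes share the same 4 arrays.

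The direction between the models held on each scale tried. On the values as deposited, where the median gene was 0.23 higher in iMet than in iHRAS*, the 8 differences ran from -1.13 for Dhcr7 to -0.06 for Sqle and all kept their sign. That scale moved the balance of all calls between the models from 905 higher and 782 lower in iMet to 1800 higher and 447 lower. The deposited medians of the arrays differed by up to 0.72, and the bacterial BioB control that is spiked into the hybridisation read 7.75 ± 0.27 (SD, n = 6) on iHRAS* arrays against 8.77 ± 0.18 (SD, n = 6) on iMet arrays and 8.68 ± 0.20 (SD, n = 4) on melanocyte arrays. BioC had a smaller gap, 8.90 on iHRAS* against 9.60 on iMet and 9.55 on melanocyte arrays, and BioD none of that kind, at 10.86, 10.84 and 10.78. The part of these controls in the results was not tested.

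The remaining probe sets of these genes were dimmer. Of the 20 probe sets, 13 were bright enough to be tested between the models, and each of the 13 was lower in iMet. Hmgcs1 had 4 such probe sets, with differences from -0.59 to -0.19, Idi1 had 2, at -0.91 and -0.76, and Fdft1 had 2, at -0.33 and -0.32. Among the 7 untested, 2 of Fdft1 were higher in iMet, by 1.00 and 0.69, at signals of 3.23 or less in both models, and so was 1 of Cyp51, by 0.27, at 2.83 or less. For iHRAS* against melanocytes 14 were tested, and the 4 called were those that stand for their genes. There the further tested probe sets of Hmgcs1 (0.37 to 0.69), Idi1 (0.92) and Cyp51 (0.25) were higher by sign and not called. This second Cyp51 probe set overlapped in that comparison and was untested between the models, at -0.36. The probe set used for Lss is of the type that may also detect related transcripts.

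**Figure D2:**
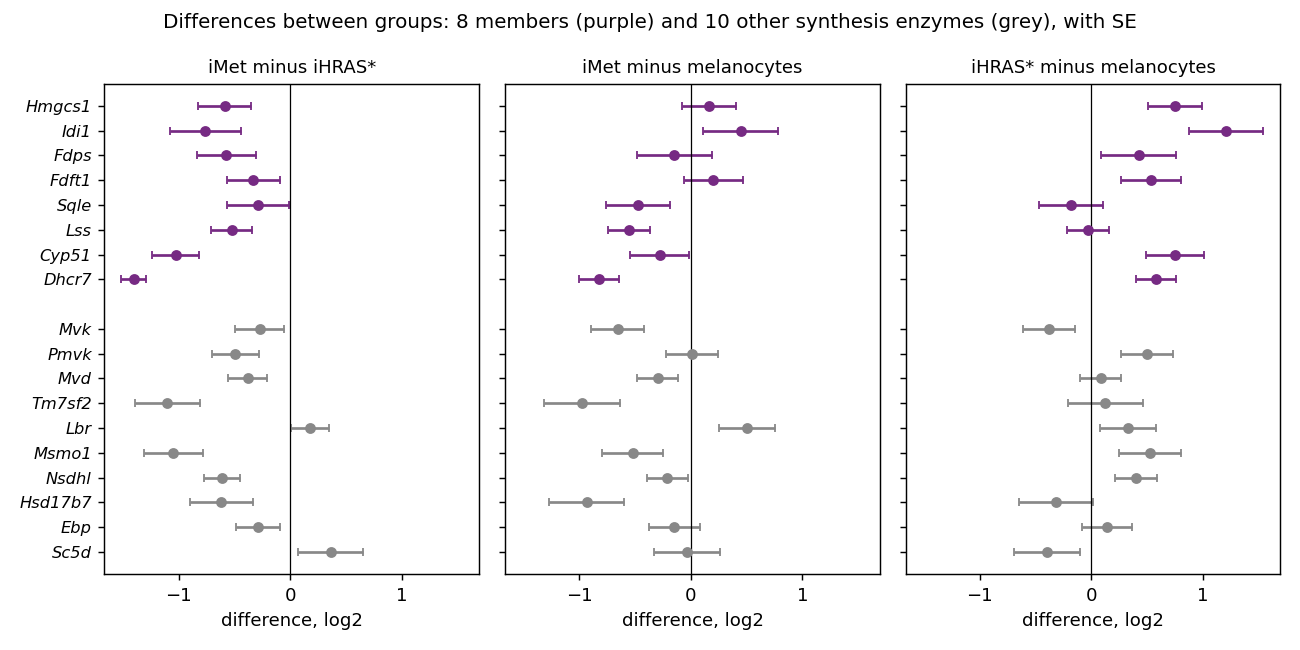
Differences between groups on the log2 scale (x axis) with the SE of the limma fit, for the 8 genes in purple and 10 further synthesis enzymes in grey (y axis). All 8 purple points lie left of 0 for iMet minus iHRAS*, from -1.40 for Dhcr7 to -0.29 for Sqle. The iMet mean of Tm7sf2 lay under the dim cut, so the size of its 2 differences with iMet is not read.

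The other enzymes of the route were a list written from textbook knowledge, of which 10 of 13 had a probe set. Between the models 3 of the 10 fell in iMet relative to iHRAS* and none rose. They were Msmo1, which removes the paired methyl groups after Cyp51 (-1.05 ± 0.27, limma adjusted p = 0.0156), Nsdhl, which acts with it (-0.61 ± 0.16, adjusted p = 0.0184), and Tm7sf2, a sterol reductase. Tm7sf2 passed the dim filter mostly through its iHRAS* arrays. Its iMet mean, 5.40, lay under the cut, so no size or p-value is given for it. All 3 act after lanosterol, as do most of the 10. Between the models 20.9% of all genes tested were called, 9.7% lower. By sign 8 of the 10 were lower in iMet, and their median difference was -0.44. The exceptions were Lbr, at 0.18 ± 0.17, and Sc5d, which makes the substrate of Dhcr7, at 0.36 ± 0.29. Without iHRAS* arrays 5 and 6 Tm7sf2 was the 1 of these 3 still called, on the values as deposited Nsdhl was not called, and with the dim filter at the 50th percentile Tm7sf2 was too dim to be tested.

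Msmo1 ran from 8.08 through 9.33 to 9.85 in iMet and from 9.82 through 10.21 to 10.76 in iHRAS*, so that the groups barely overlapped. Tm7sf2 was above the dim cut on 1 of 6 iMet arrays and on 5 of 6 iHRAS* arrays. Against melanocytes 3 of the 10 fell in iMet, where 18.7% of all genes tested were called lower. They were Tm7sf2, again with no size given, Hsd17b7, a ketoreductase (-0.93 ± 0.33, limma adjusted p = 0.0403), and Mvk, mevalonate kinase (-0.66 ± 0.23, adjusted p = 0.0406). None of these 3 calls was made without melanocyte array 1, 2 or 3, without iMet array 3, with no dim filter or on the values as deposited, and some were also lost without iMet array 2, 4, 5 or 6. In iHRAS* limma called none of the 10 against melanocytes, where 39.3% of all genes tested were called. At an unadjusted p under 0.05 there were 2, Nsdhl and Pmvk, both higher. Without iMet array 5 limma called Msmo1 of the 10, and without iHRAS* array 1 Nsdhl, both higher.

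Of the genes that control SREBP release, 5 of 9 listed had a probe set. Scap, the sterol-sensing escort, was ordered melanocyte, iHRAS*, iMet, with means of 10.35 ± 0.09 (SD, n = 4), 9.90 ± 0.21 (SD, n = 6) and 9.26 ± 0.21 (SD, n = 6), and no 2 of the groups overlapped. It fell in iMet against both other groups, by 0.64 against iHRAS* (limma adjusted p = 0.00505) and 1.09 against melanocytes (adjusted p = 2.64e-05), and in iHRAS* by 0.46 (adjusted p = 0.0144), a call lost without either melanocyte pair. Srebf1, whose product favours fatty acid genes, was lower in iMet than in iHRAS* (-0.50 ± 0.14, adjusted p = 0.026) and than in melanocytes (-0.50 ± 0.17, adjusted p = 0.0365). Srebf1 lost the first of these calls on the values as deposited and when any 1 of 4 arrays was left out (iMet 1 or 3, iHRAS* 4 or 6). It lost the second when any 1 of 7 was left out (melanocyte 1, 2 or 3, iMet 1, 2, 3 or 6). Srebf2, which encodes SREBP2, missed the threshold in all 3 comparisons, at -0.37 ± 0.16 between the models (adjusted p = 0.113), 0.03 ± 0.20 for iMet and 0.40 ± 0.20 for iHRAS* against melanocytes, and the sign of the second turned under several settings.

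The 8 genes also varied among arrays of the same group. When each group's mean was removed, all 21 pairs among the 7 genes other than Dhcr7 were positively correlated over the 16 arrays, with Pearson's r from 0.41 to 0.86 and a median of 0.58. The same held within the 6 iMet arrays, with 21 of 21 pairs positive and a median of 0.72, and within the 6 iHRAS* arrays, with 21 of 21 and a median of 0.57, while 11 of 21 were positive over the 4 melanocyte arrays. Dhcr7 was apart in the tumours, where 1 of its 7 pairs was positive within iMet and 2 of 7 within iHRAS*. Over the 16 arrays its pairs ran from -0.17 to 0.36, with 4 positive. Over the 4 melanocyte arrays 6 of 7 were positive, with a median of 0.76 against 0.39 for the other 21 pairs. These correlations are descriptions, since the points share arrays and scaling.

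On iMet array 2 the 7 genes lay on average 0.61 above their group means, and on iMet arrays 1 and 6 0.31 and 0.24 above. On iMet arrays 5, 3 and 4 they lay below by log2 means of -0.53, -0.42 and -0.21. Among iHRAS* arrays, array 4 stood at 0.58 and array 1 at -0.30, the other 4 falling between -0.12 and -0.01. Melanocyte array 4 stood at -0.40, and the other 3 between 0.07 and 0.17. Over the same iMet arrays Dhcr7 deviated by no more than 0.20 in either direction.

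**Figure D3:**
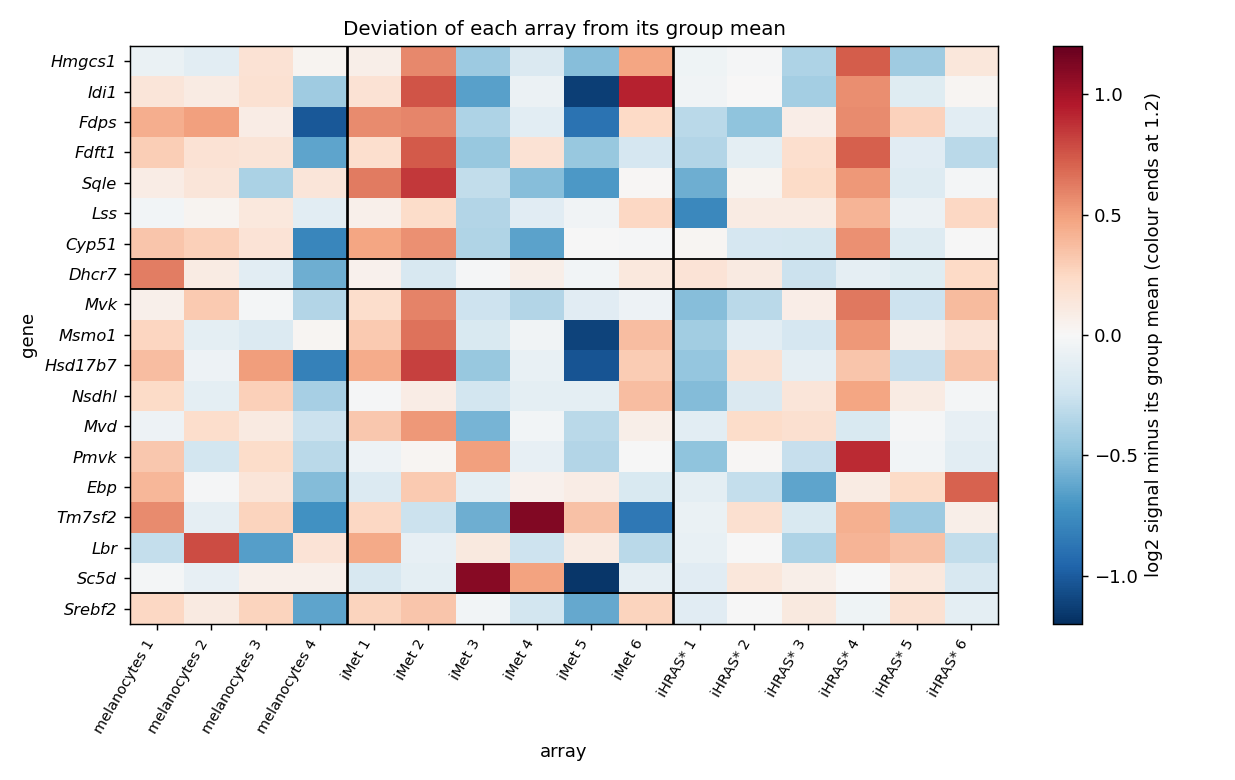
Colour gives each array's log2 signal minus the mean of its group for the 8 genes, 10 other synthesis enzymes and Srebf2 (y axis), with arrays along the x axis and black lines between groups. Columns such as iMet array 2, iMet array 5 and iHRAS* array 4 keep 1 colour down most of the first 7 rows, with mean deviations of 0.61, -0.53 and 0.58, while the Dhcr7 row stays pale in the tumours.

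Each of the 8651 genes tested was then ranked by its within-group correlation with the mean of the 7 genes, a member being left out of the mean it was compared with. Hsd17b7 ranked 1 (r = 0.87 over 16 arrays), Mvk 2 (r = 0.82) and Msmo1 3 (r = 0.82), ahead of Fdps at 4 and Fdft1 at 5, where the median gene had r = 0.01. None of these 3 enzymes was among the genes from which the mean was made. The first genes outside the lists were Aqp1 at 6 (r = 0.79), Sprr2k at 8 (r = 0.79), Sec14l2 at 9 and Mrgprf at 10. Serpinb11 at 11 (r = 0.75) and Lce1i at 15 (r = 0.74) also ranked ahead of Hmgcs1 at 18 and Sqle at 20. Nsdhl ranked 29 and Mvd, the decarboxylase of the isoprenoid step, 48. Dhcr7 ranked 2736 (r = 0.14), Lbr 3401 and Sc5d 5234 (r = -0.06), so the later enzymes did not all vary with the 7.

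Srebf2 ranked 22 in the same list (r = 0.71). Its correlation was 0.88 over the 6 iMet arrays and -0.07 over the 6 iHRAS* arrays. When the 2 arrays whose 7-gene mean was farthest from the median, iMet 2 and iHRAS* 4, were left out, Hsd17b7 stayed first (r = 0.89) and Srebf2 stood at 0.85, but Hmgcs1 dropped to 0.48 and Dhcr7 came up to 0.46. Without melanocyte array 4 Dhcr7 stood at -0.14, so its r depends on which arrays are counted.

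Genes of cell division, efflux and fatty acid synthesis gave lower correlations with the 7-gene mean. The list of cell division genes had r = 0.10 as a mean and the highest of its genes, Aurkb, 0.25. Efflux and storage genes ran from -0.29 for Apoe to 0.32 for Ch25h, and fatty acid genes from -0.42 for Acly to 0.37 for Scd2. The mean of 12 keratinocyte markers had r = 0.27 over the 16 arrays and 0.65 over the iHRAS* arrays, and -0.09 without iMet array 2 and iHRAS* array 4. Endothelial markers had r = 0.49 in iMet and -0.66 in iHRAS*.

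**Figure D4:**
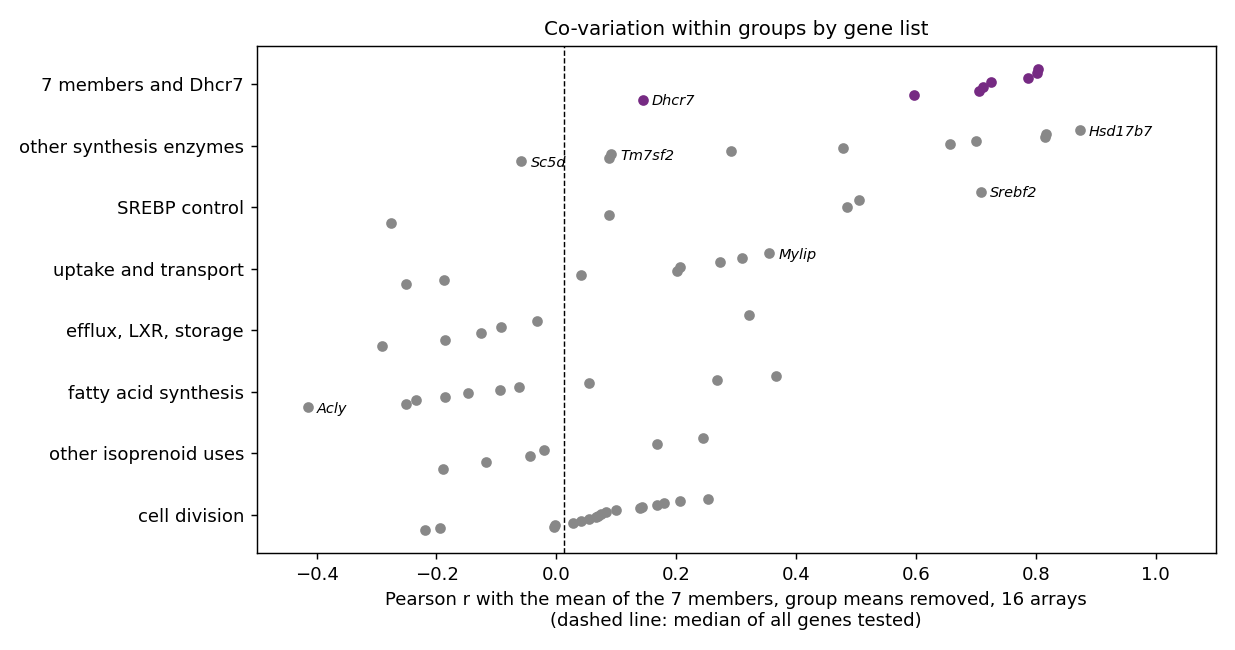
Pearson's r of single genes with the mean of the 7 genes after group means were removed (x axis, 16 arrays), by gene list (y axis), with the 8 genes in purple and the median of all genes tested as a dashed line. Among the further enzymes Hsd17b7 reaches 0.87, while Dhcr7 stands at 0.14, near Tm7sf2 at 0.09.

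The genes outside the lists whose levels followed Dhcr7 most closely over the 16 arrays, group differences included, were Mark1 (r = 0.94), Nppb (r = 0.92), Mllt11 (r = 0.92), Tmem131 (r = 0.91) and Panx1 (r = 0.91). Each had its lowest mean in iMet and its highest in iHRAS*. For the mean of the other 7 genes they were Serpinb11 (r = 0.84), Lce1i (r = 0.83), Psors1c2 (r = 0.81), Sprr2d (r = 0.81) and Wars (r = 0.79). Lce1i and Sprr2d encode proteins of the cornified envelope of skin, so markers of other skin cells are given with their levels.

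The mean of 12 keratinocyte markers was 8.05 ± 1.30 (SD, n = 4) in melanocytes, 6.92 ± 2.07 (SD, n = 6) in iMet and 9.55 ± 0.86 (SD, n = 6) in iHRAS*, in the same order of tumour groups as the 8 genes. Between the models 4 of 11 tested keratinocyte markers fell in iMet and none rose, where 9.7% of all genes tested were called lower. In melanocytes Krt1, Cdh1 and Epcam were dim on every array. Krt14 (12.73), Krt5 (12.57), Perp (11.21), Sfn (9.22), Trp63 (9.12) and Krt17 (9.01) were above the cut on all 4 melanocyte arrays and had higher means there than in either tumour group. In iMet these markers ran from 4.54 on array 4 to 9.09 on array 2, and arrays 1 and 6, both above average for the 7 sterol genes, stood at 4.61 and 9.08. The mean of 5 sebocyte markers was 5.77, 5.91 and 6.79 in melanocytes, iMet and iHRAS*, with Mc5r dim on every array of all 3 groups. Fibroblast markers stood at 9.47, 11.60 and 12.10, and macrophage markers at 5.28, 10.23 and 9.20. Cell division genes averaged 9.68 ± 0.21 (SD, n = 6) in iMet and 8.61 ± 0.29 (SD, n = 6) in iHRAS*, the reverse of the sterol genes. The part of these other cells in the differences was not tested.

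Uptake and intracellular transport of cholesterol was represented by 8 measured genes of 11 listed. Against melanocytes 3 rose in iMet and 5 in iHRAS*, and none fell. Of all genes tested, 16.4% were called higher in iMet against melanocytes and 18.1% in iHRAS*. Lrp1, a large endocytic receptor for lipoproteins, rose by 1.51 ± 0.19 in iMet (limma adjusted p = 2.72e-05) and 1.75 ± 0.19 in iHRAS* (adjusted p = 6.94e-06), and Mylip, which marks LDL receptors for degradation, by 1.49 ± 0.26 and 1.48 ± 0.26. Npc2, which hands cholesterol out of lysosomes, rose by 0.75 ± 0.14 and 1.14 ± 0.14. Its call in iMet was lost with median centring. Between the models Npc2 was 0.40 ± 0.12 lower in iMet on the log2 scale (adjusted p = 0.0323) and Stard3, a late endosomal sterol carrier, 0.43 ± 0.12 lower (adjusted p = 0.0219). The Npc2 call between the models was lost with median centring and when any 1 of 6 arrays was left out (iMet 1, 3 or 5, iHRAS* 1, 4 or 5). The Stard3 call was lost on either other scale and when iMet 3 was left out.

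Of 6 measured efflux and oxysterol genes of 9 listed, 4 rose against melanocytes in iMet and in iHRAS*: Apoe, Cyp27a1, Abca1 and Abcg1. Over all genes tested 16.4% were called higher in iMet and 18.1% in iHRAS*. The Abcg1 call was lost in both tumour groups without melanocyte array 2 or 4. In iMet it was also lost without iMet array 4, and in iHRAS* on the values as deposited and without iHRAS* array 1, 5 or 6. Ch25h and Nr1h3 did not pass in either tumour group, and limma called none of the 6 between the models, where 2 had an unadjusted p under 0.05. The exporter gene Abca1 rose by 1.76 ± 0.26 in iMet and 1.53 ± 0.26 in iHRAS*.

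Apoe, a carrier of exported cholesterol, averaged 13.44 ± 0.20 (SD, n = 6) in iMet and 12.50 ± 0.90 (SD, n = 6) in iHRAS*, and was dim on 3 of 4 melanocyte arrays. Cyp27a1, a sterol hydroxylase, averaged 7.06 ± 0.44 (SD, n = 6) and 7.54 ± 0.34 (SD, n = 6), and was dim on all 4 melanocyte arrays. No size of difference is given for either, since the melanocyte side lay under the cut. Abca1 and Apoe are also strongly expressed by macrophages, whose 8 markers all rose in both tumour groups. The part of macrophages in the rise of these genes was not tested.

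Fatty acid synthesis genes went in both directions. Of 10 genes, 3 rose and 3 fell in iMet against melanocytes, and 2 rose and 3 fell in iHRAS*. Of all genes tested, 35.1% were called in either direction in iMet and 39.3% in iHRAS*. The desaturase gene Scd1 and the elongase gene Elovl6 rose in both groups, Elovl6 by 2.11 ± 0.45 and 2.43 ± 0.45, and the desaturases Fads1 and Fads2 fell in both, Fads2 by 2.57 in iMet and 2.64 in iHRAS* on the log2 scale. Between the models Scd2, a stearoyl-CoA desaturase, was lower in iMet (-0.87 ± 0.13, limma adjusted p = 0.000877) and Me1, which makes NADPH for lipid synthesis, was higher (1.45 ± 0.25, adjusted p = 0.00192). The mean of 4 adipocyte markers was 3.05 in melanocytes, 5.61 in iMet and 4.16 in iHRAS*, and reached 8.65 on iMet array 5. All 4 were dim on every melanocyte array. The part of fat cells in the differences of these genes was not tested.

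**Figure D5:**
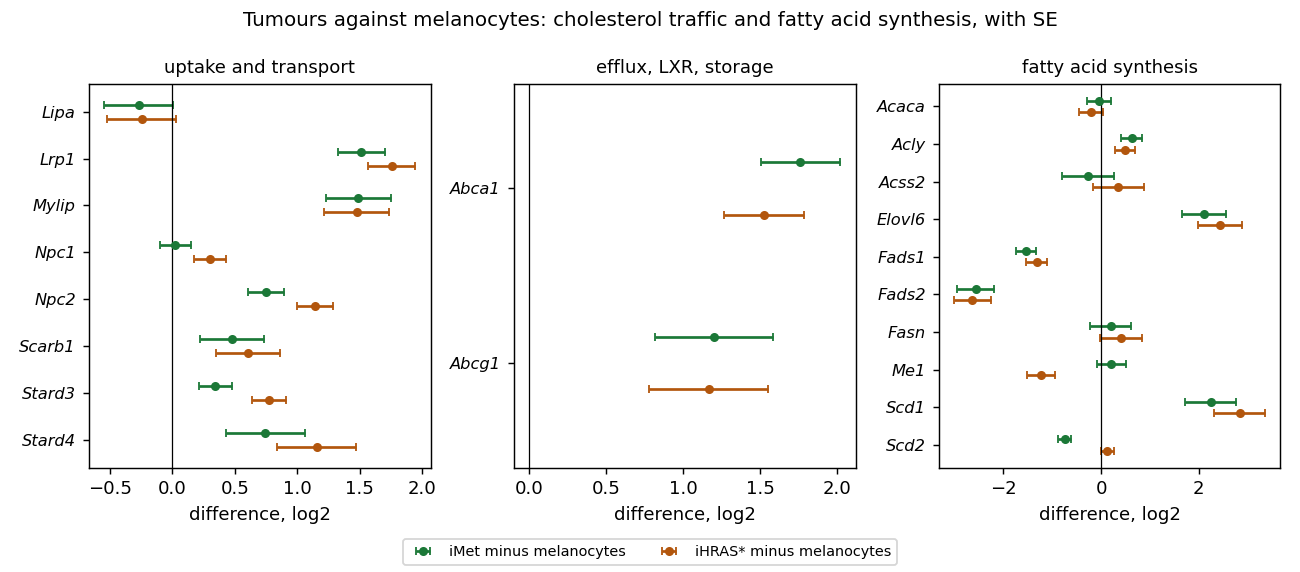
Differences from melanocytes on the log2 scale (x axis) with SE for genes of cholesterol uptake and transport, efflux and fatty acid synthesis (y axis), in iMet (green) and iHRAS* (orange). Lrp1 lies at 1.51 and 1.75 and Fads2 at -2.57 and -2.64, and Apoe, Cyp27a1, Ch25h and Nr1h3, whose melanocyte means were under the cut, are not plotted.

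Enzymes that draw isoprenoids away from sterols gave 2 calls between the models. Of all genes tested there, 20.9% were called, 11.2% with iMet higher. Of 6 measured genes of 10 listed, 2 rose in iMet relative to iHRAS* and none fell: Rabggtb, a subunit of the enzyme that prenylates Rab proteins (0.70 ± 0.10, limma adjusted p = 0.000832), and Dhdds, of dolichol synthesis (0.51 ± 0.12, adjusted p = 0.0107). Neither overlapped between the models. Against melanocytes both fell in iHRAS*, by 0.40 and 0.83 on the log2 scale. Rabggta, the partner subunit of Rabggtb, had a difference of the opposite sign between the models, -0.49 ± 0.23, which did not pass (limma adjusted p = 0.138). Ggps1, Fnta and Fntb did not pass the test in any comparison, with differences between the models of 0.23 ± 0.25, -0.08 ± 0.14 and -0.11 ± 0.27.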

How the data were processed

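The authors deposited 1 table of log2 values for 22690 probe sets and 16 arrays, and the deposited scale is taken as log2 from its range, -4.07 to 14.53. No label or header read here names the step that turned probes into probe-set values. With 64 controls left out, 22626 probe sets were quantile normalized because array medians ran from 6.56 to 7.28. Of these, 20380 carried 1 gene symbol, 691 several and 1555 none in the platform annotation.

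Genes were tested with limma 3.58.1 in R 4.3.3 (two-sided, Benjamini-Hochberg over all genes tested) if above the 40th percentile of all values, 6.21, on at least 6 arrays between the tumours or 4 in the other fit: 12 tumour arrays for iMet against iHRAS*, and all 16 arrays against melanocytes. The fit was tested on simulated data. No array pair was a duplicate (highest r = 0.954). The members and lists were chosen with earlier results of these data known. From each list, Srebf2 and up to 4 genes with the smallest p-values in a comparison were named, with called genes against the majority. Correlations of single genes, and Lbr, Sc5d, Ch25h, Nr1h3, Ggps1, Fnta, Fntb and Rabggta, were added after their values were seen. Alternatives changed scaling, filter, probe set choice, samples, replicate block, variance prior and arrays. The number of arrays limits the precision.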

Additional observations from a re-analysis of the deposited data

Results flagged for a closer look

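In 5 of the 24 combinations of gene and group, 1 array stood apart from the rest of its group by Dixon's criterion, where chance gives about 1 in 20. Melanocyte array 4 was low for Idi1 (6.99, the nearest array at 7.52), Fdft1 (6.89, nearest 7.68) and Cyp51 (7.11, nearest 8.06), and melanocyte array 3 was low for Sqle (8.90, nearest 9.38). The iHRAS* array 4 was high for Cyp51 (9.19, nearest 8.66).

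Dhcr7 lay on opposite sides of the melanocyte mean in the 2 models on every array, by -0.82 in iMet and 0.58 in iHRAS*, and this opposition was not tested. By limma's adjusted p, 11 genes of the pathway lists outside the 8 differed between the models. These lists held 10, 5, 8, 6, 9 and 6 tested genes, and 20.9% of all genes tested were called in that comparison. Lower in iMet than in iHRAS* were Tm7sf2 (-1.10), Msmo1 (-1.05), Scd2 (-0.87), Scap (-0.64), Nsdhl (-0.61), Srebf1 (-0.50), Stard3 (-0.43) and Npc2 (-0.40). Higher were Me1 (1.45), Rabggtb (0.70) and Dhdds (0.51).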

How the results depend on the processing

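Between the models all 8 differences kept their sign in 20 of 20 other settings, and in the mean over all probe sets 7 did, Fdft1 turning to 0.26. The members called in iMet against iHRAS* numbered 1 with the mean of all probe sets. For iMet against melanocytes 1 was called as deposited, with no dim filter, with the mean of probe sets, without melanocyte arrays 1 and 3, and without 2 and 4. For iHRAS* against melanocytes 1 was called as deposited and with median centring, 2 with the mean of probe sets and without iHRAS* arrays 5 and 6, and 0 without melanocyte arrays 2 and 4.

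The further enzymes called between the models numbered 1 without iHRAS* arrays 5 and 6. For iMet against melanocytes they numbered 0 as deposited, with no dim filter and without melanocyte arrays 1 and 3, and 1 with only those groups in the fit. For iHRAS* against melanocytes they numbered 1 in several settings, a different gene each time. Mvk was lower with the mean of probe sets, Hsd17b7 with every probe set separate and Sc5d with only those groups in the fit. Nsdhl was higher without melanocyte arrays 1 and 3, and Lbr without 2 and 4. In that comparison 5256 of 13823 probe sets were called with every probe set separate, and 2177 genes without melanocyte arrays 2 and 4.

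Leaving out 1 array at a time, all genes called ranged from 1293 to 1797 between the models, from 2440 to 3219 for iMet and from 2740 to 3560 for iHRAS* against melanocytes. Members called ranged from 2 to 3, from 1 to 2 and from 2 to 4, and further enzymes from 3 to 3, from 0 to 3 and from 0 to 1. The uncalled Srebf2 difference of iMet from melanocytes ranged from -0.18 to 0.15 in these fits, negative when melanocyte array 4 (-0.18) or iMet array 1 (-0.02), 2 (-0.04) or 6 (-0.02) was left out, and was -0.18 with median centring and -0.23 when melanocyte arrays 2 and 4 were both left out. The cause of these changes was not tested.

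Scaling moved the share of higher calls: as deposited, 1340 higher and 2425 lower for iHRAS* against melanocytes (1565 and 1839 otherwise), and with median centring 1174 and 2309 for iMet (1418 and 1622 otherwise) and 1335 and 2570 for iHRAS*. Same-numbered samples correlated from -0.22 to 0.11, so the replicate numbers were not taken as pairs. With the replicate block limma called 1186 genes between the models, 2401 for iMet and 2832 for iHRAS* against melanocytes. Under this block the members called in iMet against melanocytes numbered 1 and the further enzymes 0, and between the models the further enzymes numbered 2, Nsdhl being lost.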
